A study of Mus musculus with 6 samples.

Results

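The caveolins, cavins and caveolar coat genes are 8 genes, Cav1, Cav2, Cav3, Cavin1, Cavin2, Cavin3, Ehd2 and Pacsin3, of 18182 genes measured. They were chosen by symbol, older symbols included, and had 19 of the 34909 probe sets that name 1 gene. For each gene the probe set brightest on average across the 6 arrays stands as its main row. This mean includes the E17.5 arrays, so for a gene that rises the choice leans to probe sets bright at E17.5 and is not independent of the contrast. RNA came from limb cells of Tg:Pax7-nGFP mice on a C57BL/6:DBA2 background, in which nuclear GFP is driven from Pax7, the gene of a transcription factor of muscle stem and progenitor cells. GFP-positive cells were sorted after trypsin digestion of the limbs at E12.5, an embryonic age, and at E17.5, a fetal age. Each age had 3 arrays, lettered A, B and C and labelled as biological replicates, and whether embryos were pooled is not stated. Both ages carried the transgene, and no further allele or agent is named. GFP protein can persist in a cell after Pax7 is switched off, so the sort need not take only cells that express Pax7.

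Caveolae are flask-shaped pits of the plasma membrane, rich in cholesterol. Caveolins sit in the membrane, cavins bind them from the cytosol as an outer coat, and EHD2 and PACSIN proteins shape and hold the neck. Caveolae flatten under stretch and so buffer membrane tension, and they are abundant in muscle fibres, endothelium, adipocytes and fibroblasts. Cav3 is the caveolin of differentiated skeletal muscle, and mutations in it cause muscle disease.

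The upstream sequences of 4 members are shown because Cav1 and Cav2 are neighbouring genes that moved together, Cav3 is the muscle caveolin, and Cavin2 had the largest difference. Each is the 250 bases before the gene's RefSeq start (GRCm38.p6), 5′ to 3′ on the gene's strand. They lie at chr6:17280935-17281184 (Cav2), chr6:17306085-17306334 (Cav1), chr6:112459255-112459504 (Cav3) and chr1:51288876-51289125 (Cavin2), all on the plus strand. Capitals mark the E-box CANNTG, the core bound by basic helix-loop-helix factors such as MyoD and myogenin, and the MCAT element CATTCC, bound by TEAD factors, on either strand.
Cav2: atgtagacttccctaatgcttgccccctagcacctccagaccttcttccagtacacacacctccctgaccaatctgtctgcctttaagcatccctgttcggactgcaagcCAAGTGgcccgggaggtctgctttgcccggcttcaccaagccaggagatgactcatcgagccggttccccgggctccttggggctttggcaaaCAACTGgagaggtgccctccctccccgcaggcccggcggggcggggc
Cav1: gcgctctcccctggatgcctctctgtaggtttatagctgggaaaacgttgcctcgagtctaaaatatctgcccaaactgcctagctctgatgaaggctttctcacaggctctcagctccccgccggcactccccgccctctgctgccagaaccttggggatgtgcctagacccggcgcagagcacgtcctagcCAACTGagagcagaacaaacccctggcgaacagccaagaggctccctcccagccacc
Cav3: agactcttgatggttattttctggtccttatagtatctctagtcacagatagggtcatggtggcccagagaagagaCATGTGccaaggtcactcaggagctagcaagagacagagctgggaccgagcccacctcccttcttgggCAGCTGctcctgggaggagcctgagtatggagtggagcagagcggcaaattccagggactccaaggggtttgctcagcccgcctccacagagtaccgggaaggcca
Cavin2: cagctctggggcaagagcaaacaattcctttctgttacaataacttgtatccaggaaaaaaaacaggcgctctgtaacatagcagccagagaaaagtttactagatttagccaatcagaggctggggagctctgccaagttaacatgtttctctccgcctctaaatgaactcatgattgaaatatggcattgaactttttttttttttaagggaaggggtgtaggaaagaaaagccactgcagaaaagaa

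Cav2 and Cav3 each held 2 E-boxes in this window, those of Cav3 reading CATGTG and CAGCTG, and Cav1 held 1. The Cavin2 window held none of the 4 motifs searched. Of the 7 members with a listed sequence, 5 had an E-box, against 66.1% of 27025 windows of this length, and 2 (Cavin1 and Pacsin3) had an MCAT element, against 12.6%. The AP-1 site TGANTCA was found in 1 (Cav2), against 6.85%, and the GC box GGGCGG in 5, against 33.0%. Each motif was searched on both strands, and no motifs overlapped in a member. A match describes letters only and is not a binding site. Cavin3 was not listed.

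Values are GCRMA signals on the log2 scale. A difference is the E17.5 mean less the E12.5 mean, with the standard error (SE) of limma and a Benjamini-Hochberg adjusted p taken over all genes, and a gene is called when that p is under 0.05. Differences between the ages compare levels of 1 probe set between arrays. For marker lists, signals are also summed or averaged over the probe sets of several genes, and in a sum the brightest weigh most. Where a probe set is called brighter or dimmer than another, this describes its signal only. Array medians ran from 3.38 to 3.47, and the mean was under 4, a range of little specific signal after GCRMA, for 42.8% of genes. Among 8758 genes of mean 6 or more, the SD of the difference between E17.5 replicates A and B was 0.152, whereas the remaining pairs of the same age gave 0.412 to 0.551. These arrays are thus nearly alike, and each member was also tested with their average standing for both. Pax7 was at 11.46 ± 0.28 at E12.5 and 12.37 ± 0.15 at E17.5 (SD, n = 3), and the skeletal muscle regulators Myf5 and Myod1 were at 12.62 and 10.91 over both ages.

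All 8 genes were higher at E17.5. Each was called, against 8.21% of all genes called higher by limma, and none was lower, also at an unadjusted p under 0.05 (8.73% of all genes were called lower). In each of the 8 the lowest E17.5 array lay above the highest E12.5 array, against 14.2% of all genes. The median difference of the 8 was 4.87, and that of all genes was 0.003. The genes were taken up with results of these arrays known, so the counts describe the group and are no independent evidence for it. In bulk RNA, fewer cells of a type and less RNA per cell cannot be told apart.

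**Figure D1:**
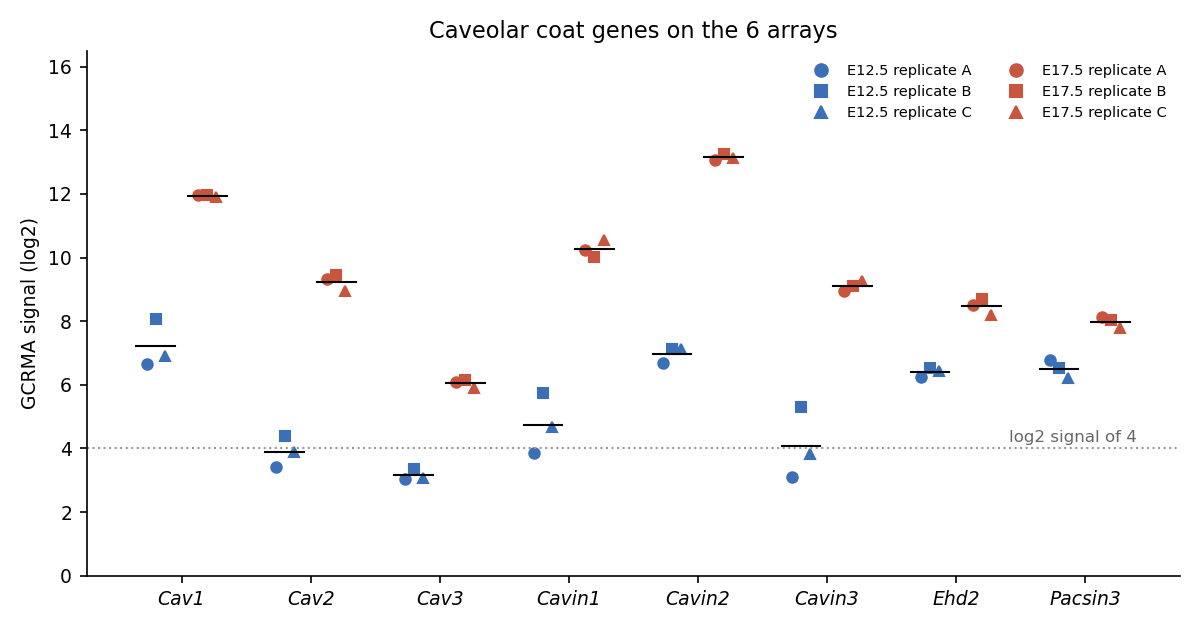
GCRMA signal (log2) of the main probe set of each gene on each of the 6 arrays, blue for E12.5 and red for E17.5, with circles, squares and triangles for replicates A, B and C and a black bar at the mean of each age. The red points lie above the blue ones in all 8 genes, the dotted line marks a signal of 4, and E12.5 replicate B is the highest blue point in 6 genes.

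Cav1 encodes the main structural caveolin of non-muscle cells. It stood at 6.65, 8.08 and 6.90 at E12.5 and 11.95, 11.95 and 11.90 at E17.5, in the order A, B and C used throughout. The ages were 3.82 apart at their nearest arrays, and nearly all spread lay at E12.5, where replicate B was high. The means were 7.21 ± 0.76 and 11.93 ± 0.03 (SD, n = 3), a difference of 4.72 or 26.4-fold (SE 0.35, adjusted p = 0.000343).

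Cav2 encodes a caveolin that depends on caveolin-1 to reach the cell surface. Its signals were 3.43, 4.39 and 3.88 at E12.5 and 9.33, 9.44 and 8.96 at E17.5, so that the E12.5 arrays lay around 4 and all E17.5 arrays far above it. The difference was 5.34 or 40.6-fold (SE 0.30, adjusted p = 0.00014), and 5.11 with values under 4 raised to 4. Cav3, the muscle caveolin, was at 3.03, 3.36 and 3.06 at E12.5 and 6.08, 6.16 and 5.90 at E17.5. All 3 E12.5 values were under 4, and the ages did not overlap. The difference was 2.90 or 7.45-fold (SE 0.20, adjusted p = 0.000244) as deposited and 2.05 with values under 4 raised to 4.

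The cavins included the 2 largest differences. Cavin1, which caveolae require to form, was at 3.85, 5.74 and 4.66 at E12.5 and 10.24, 10.01 and 10.55 at E17.5. The E12.5 arrays were widely spread, with A lowest and B highest, and B still lay 4.27 below the nearest E17.5 array. The difference was 5.52 or 45.8-fold (SE 0.46, adjusted p = 0.000531).

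Cavin2, a cavin that binds phosphatidylserine and promotes membrane curvature, was at 6.69, 7.11 and 7.13 at E12.5 and 13.06, 13.27 and 13.12 at E17.5. Both ages were tight, and the gap of 5.93 between them was the widest of the 8 genes. The difference was 6.17 or 72.2-fold (SE 0.15, adjusted p = 2.32e-05), the 10th largest rise of all genes.

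Cavin3, first described as a binding protein of protein kinase C delta, was at 3.10, 5.31 and 3.81 at E12.5 and 8.94, 9.09 and 9.26 at E17.5. It had the largest E12.5 spread of the 8 (4.07 ± 1.13, SD, n = 3), again with replicate B high, while the E17.5 arrays were close together (9.10 ± 0.16). The difference was 5.02 or 32.5-fold (SE 0.54, adjusted p = 0.00139).

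The neck proteins gave smaller differences. Ehd2, the membrane-bound ATPase that holds caveolae at the cell surface, was at 6.25, 6.54 and 6.42 at E12.5 and 8.51, 8.69 and 8.20 at E17.5. Its ages did not overlap and differed by 2.06 or 4.18-fold (SE 0.20, adjusted p = 0.000855). Pacsin3, a membrane-bending F-BAR protein, was at 6.77, 6.52 and 6.20 at E12.5 and 8.12, 8.04 and 7.79 at E17.5. Its difference was the smallest of the 8, 1.49 or 2.8-fold (SE 0.22, adjusted p = 0.00492), and it was the only member highest in replicate A at E12.5.

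The 95% intervals of the differences were 5.82 to 6.53 for Cavin2, 4.41 to 6.62 for Cavin1, 4.62 to 6.07 for Cav2, 3.73 to 6.32 for Cavin3 and 3.88 to 5.57 for Cav1. Each overlapped its neighbour in that order. Those of Cav3 (2.43 to 3.36), Ehd2 (1.59 to 2.53) and Pacsin3 (0.97 to 2.0) lay below the interval of Cav1 and overlapped from one to the next. Differences were not tested between genes, since probe sets can differ in how steeply they respond.

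**Figure D2:**
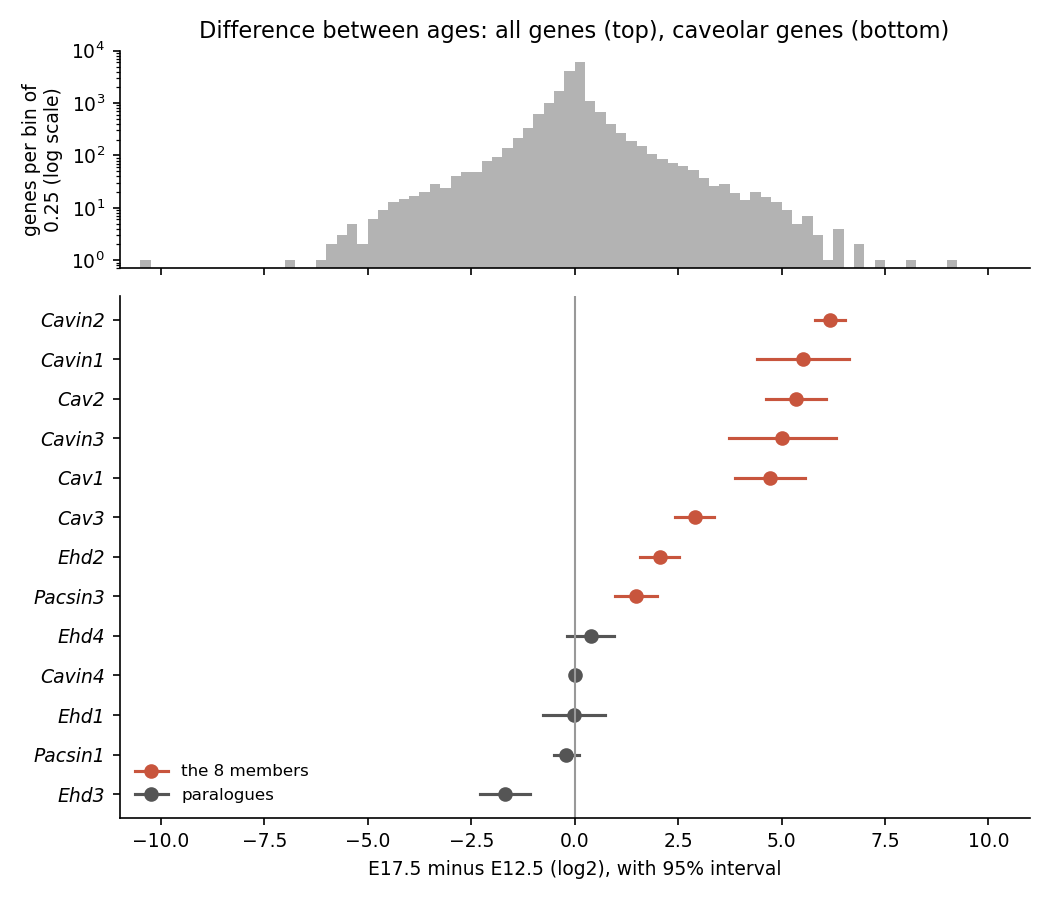
Top, number of genes per bin of 0.25 in the difference E17.5 minus E12.5 (log2) over all 18182 genes, with a log count axis. Bottom, difference and 95% interval of limma for the 8 members (red) and 5 measured paralogues (grey), where the members run from 1.49 to 6.17 and Ehd3 is at -1.68.

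With E17.5 A and B averaged, limma still called all 8 genes, against 5.62% of all genes. The differences in that fit ran from 1.44 for Pacsin3 (adjusted p = 0.0312) to 6.17 for Cavin2 (adjusted p = 0.000399). All 8 were also called on leaving out any single array, where 8.54%, 6.61% and 5.88% of all genes were called higher without E12.5 A, B or C and 5.52%, 5.33% and 8.54% without E17.5 A, B or C. Without E12.5 B, the array with the highest E12.5 value in 6 of the 8, the difference was 5.16 for Cav1, 6.01 for Cavin1 and 5.64 for Cavin3.

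The further probe sets of the members were higher or not called. Of all 19, 14 were called higher with p-values adjusted over all named probe sets, against 5.75% of those, none was lower at that threshold, and 5 were not called. Of the 15 with a mean of at least 4, 13 were called, against 10.2% of such probe sets. That mean spans both ages, so probe sets can pass through their E17.5 signal alone, and the count adds no support. The Cav3 probe set (3.15 at E12.5, 6.05 at E17.5) and the main one of Cav2 (3.90 and 9.24) passed in this way. The other probe sets of Cavin2 differed by 7.02 (SE 0.52, adjusted p = 0.000671) and 6.38 (SE 0.67, adjusted p = 0.00224). In both, E17.5 replicate C was the lowest of its age, at 11.03 and 10.90, which the main probe set did not show.

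Ehd2 had 5 probe sets, of which 3 were called, with differences of 2.06, 1.97 and 2.62. Another stood between 2.16 and 2.21 on all 6 arrays, and the last had ages that overlapped (0.67, SE 0.51, adjusted p = 0.576). Of 3 probe sets of Pacsin3, 2 were called, and the dimmest differed by 0.75 with no overlap of the ages (SE 0.25, adjusted p = 0.134). The second probe set of Cav2 lay between 1.93 and 1.97 on all 6 arrays and showed no signal at either age.

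The probe sets of Cavin1 also disagreed. Beside its main one, a probe set at 3.30, 2.89 and 3.25 and then 3.91, 4.13 and 3.63 rose by 0.74 (SE 0.18, adjusted p = 0.0464). The last stood at 2.61, 2.59 and 2.70 and then 3.07, 4.31 and 2.89, with only E17.5 B above 4 (0.79, SE 0.36, adjusted p = 0.262). The mean of all probe sets gave 2.35 for Cavin1 and 2.67 for Cav2, both called. Cav1, Cav3 and Cavin3 had 1 probe set each and could not be checked in this way.

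**Figure D3:**
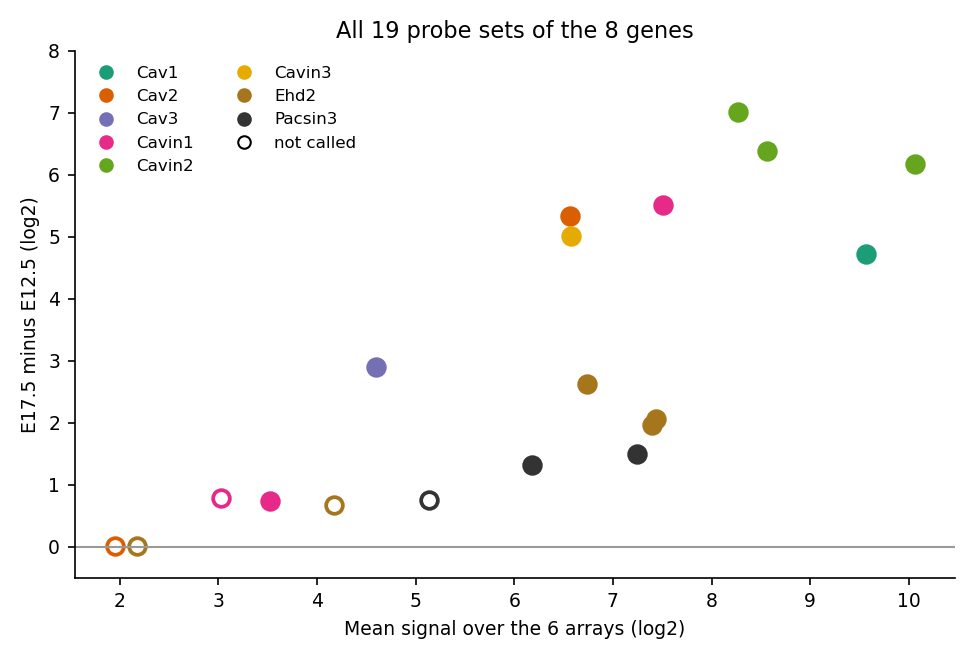
Difference E17.5 minus E12.5 (log2) against the mean signal over the 6 arrays (log2) for all 19 probe sets, coloured by gene, filled where called higher and open where not called. The 5 open circles have means of up to 5.14, and the probe sets with a mean above 6 are all filled.

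Cav2 and Cav1 lie side by side on chromosome 6 in the RefSeq order of protein-coding genes, between Tes and Met. Tes, which encodes the focal adhesion protein testin, was at 7.61, 9.16 and 7.19 at E12.5 and 3.24, 3.43 and 3.08 at E17.5. All E17.5 arrays were lower, and Tes fell by 4.74 (SE 0.51, adjusted p = 0.00141). Met, the hepatocyte growth factor receptor gene that migrating limb muscle progenitors need, differed by -0.53 (SE 0.24, adjusted p = 0.223), and it was called lower without E12.5 B (-0.82, adjusted p = 0.0082). Beside Cavin1 on chromosome 11, Stat3, a transcription factor gene of cytokine signalling, rose by 2.74 (SE 0.35, adjusted p = 0.00283). Of the neighbours of Cav3, Ssu2 and Oxtr differed by 0.02 each and were not called (adjusted p = 0.657 and 0.779). These neighbours were picked for mention once their values were known.

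The genes most like a member were those with the smallest root mean square difference of centred log2 values over the 6 arrays, among 9233 genes with a mean of 6 or more at an age. For Cav1 they were Pde2a, a phosphodiesterase gene (0.13), Tek, the angiopoietin receptor gene (0.17), and Cdkn2c, a CDK inhibitor gene (0.21). Their differences between the ages were 4.78, 4.88 and 5.05, and Cavin3 was the 7th nearest (0.29). For Cavin1 the nearest of the 9233 genes was Cavin3 (0.30), then Crip1 and Csgalnact1 (0.36 each), with Cav2 the 5th (0.41). For Cav3 they were Parp12, Lrch1 and Lpar3 (0.09, 0.09 and 0.11), and the nearest member was Ehd2 in 155th place (0.43). On leaving out 1 array, 1 to 3 of each 3 stayed the nearest. This describes 6 arrays, a pair of them nearly alike. Cavin3 (4.07 at E12.5, 9.10 at E17.5) and Cav2 (3.90 and 9.24) reached a mean of 6 only at E17.5. The measure depends largely on the size of the difference between the ages, so likeness among members repeats that contrast and adds no support.

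Of 5 measured paralogues outside the group none was called higher by limma, also at an unadjusted p under 0.05, and 1 was called lower, with a median difference of -0.01. Cavin4, the muscle cavin, stood between 2.93 and 2.98 on all 6 arrays (0.01, SE 0.04, adjusted p = 0.944). Ehd3, an endosomal relative of Ehd2, was at 6.99, 6.51 and 7.10 at E12.5 and 5.10, 5.14 and 5.32 at E17.5 and fell by 1.68 (SE 0.25, adjusted p = 0.00534). Ehd1 differed by -0.01 (SE 0.31, adjusted p = 1.0), with E17.5 C at 9.60 against 10.78 and 10.74, and was called higher without that array (0.38, adjusted p = 0.0457). Ehd4 differed by 0.39 (SE 0.24, adjusted p = 0.388), and Pacsin1, the neuronal family member, by -0.20 (SE 0.12, adjusted p = 0.393). Pacsin2 was not analysed here.

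Among 13 partners of caveolin-3 and other proteins of the muscle membrane, 6 were called higher and none lower, with a median of 1.22. Popdc3 and Bves, which encode Popeye membrane proteins, rose by 4.90 (SE 0.26, adjusted p = 0.000109) and 2.62 (SE 0.24, adjusted p = 0.000755). Anxa1, the gene of a membrane repair annexin, rose by 3.33 (SE 0.51, adjusted p = 0.00615). The repair genes Dysf and Trim72 had means of 2.39 and 2.08 over the 6 arrays and were not called. Of 6 genes for anchoring and scission of caveolae, Fyn, a Src-family kinase gene, was called higher (1.16, SE 0.16, adjusted p = 0.00375), none was lower, and the median was -0.14. Without E12.5 A, 2 of these 6 and 1 of the 13 partners were called lower, and 1 of the 6 without E17.5 C. Dnm2, the widely expressed dynamin gene, differed by 0.18 (SE 0.36, adjusted p = 0.874).

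Of 10 genes for proteins enriched in caveolae, Egfr (2.72, SE 0.67, adjusted p = 0.0361) and Abcc9 (1.45, SE 0.37, adjusted p = 0.0399) were called higher, with a median of 0.45. Both calls were lost with E17.5 A and B averaged (adjusted p = 0.0951 and 0.119). Egfr was not called without E12.5 A or C, or E17.5 A, B or C (adjusted p 0.0544 to 0.101), and Abcc9 not without E12.5 A, B or C, or E17.5 A or B (adjusted p 0.0514 to 0.131). The main probe set of Abcc9 is one open to cross-matching (_s_at), and without such probe sets its difference was 0.08 (adjusted p = 0.62). Without E12.5 C, 1 of the 10 was called lower. Insr, the insulin receptor gene, differed by 0.69 (SE 0.25, adjusted p = 0.12).

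Other membrane coats and scaffolds were set beside the caveolar genes. Of 6 flotillin and stomatin genes Flot2 was higher (0.97, SE 0.22, adjusted p = 0.0254) and Stoml2 lower (-0.61, SE 0.16, adjusted p = 0.0414), with a median of 0.23. Flot2 was not called without E12.5 B or C, or E17.5 A (adjusted p 0.0521 to 0.0781), and Stoml2 not without E12.5 A, B or C, or E17.5 A or B (adjusted p 0.0838 to 0.15). Of 14 clathrin coat genes 1 was higher, 2 were lower and 11 were not called, with a median of 0.01. Without E17.5 C 2 were higher and 4 lower, and over all single arrays left out 0 to 2 were higher and 1 to 4 lower. Cltc, the clathrin heavy chain gene, differed by 0.09 (SE 0.15, adjusted p = 0.842). Dnm1, the neuronal dynamin gene, fell by 3.91 (SE 0.36, adjusted p = 0.000725), and Amph, the amphiphysin gene, fell by 0.71 (SE 0.15, adjusted p = 0.0224). Eps15, an adaptor gene of clathrin pits, rose by 0.96 (SE 0.19, adjusted p = 0.0155). With values under 4 raised to 4, Amph, which had only 1 array above that level, was at -0.09 (adjusted p = 0.71). Amph was not called without E12.5 C, or E17.5 A or B (adjusted p 0.0561 to 0.101), and Eps15 not without E12.5 B or C, or E17.5 B (adjusted p 0.0512 to 0.0567).

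Other cell types rich in caveolae were checked by their markers on the same arrays. Of 12 endothelial genes Tek was called higher (4.88, SE 0.29, adjusted p = 0.000154) and Erg lower (-2.96, SE 0.55, adjusted p = 0.013), with a median of -0.55. The defining genes Pecam1 and Cdh5 were at 2.33 ± 0.12 and 3.27 ± 0.64 at E12.5 and at 2.32 ± 0.01 and 2.93 ± 0.43 at E17.5 (SD, n = 3). They are among 5 of the 12 with a mean under 4. Other genes of the list were brighter and not called, such as Egfl7 (7.10 ± 0.35 at E12.5, 7.43 ± 0.25 at E17.5) and Plvap (5.97 ± 0.67 and 5.05 ± 0.13). The summed linear signal of the endothelial list was 359 to 846 at E12.5 and 1419 to 1610 at E17.5. Without Tek, the only gene of the list called higher, it was 366, 787 and 323 at E12.5 and 329, 323 and 336 at E17.5. Because the gene that rose was the one removed, this second sum cannot show whether endothelial RNA changed. The part of endothelial RNA in the differences of the caveolar genes was not tested.

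Of 6 measured adipocyte genes Fabp4, a fatty acid carrier gene, was called higher (4.26, SE 0.62, adjusted p = 0.00498), with a median of 0.01. The defining gene Adipoq stood between 2.12 and 2.19 on all arrays. The summed signal was 35 to 37 at E12.5 and 104 to 426 at E17.5. Without Fabp4, the only gene of the list called higher, it was 24 to 25 at E12.5 and 25 on each E17.5 array. The 5 genes left all had a mean under 4, a range of little specific signal. Their sum could hardly move and does not show whether adipocyte RNA changed.

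Of 10 smooth muscle and pericyte genes 4 were higher and 2 lower, with a median of 0.32. Tagln, the transgelin gene, rose by 5.22 (SE 0.35, adjusted p = 0.000244), and Rgs5, a pericyte gene, by 3.89 (SE 0.47, adjusted p = 0.00235). Mcam was higher (3.33, SE 0.71, adjusted p = 0.0217), but not without E17.5 A or B (adjusted p 0.0714 to 0.0773). Pdgfrb, the pericyte growth factor receptor gene, fell by 3.84 (SE 0.56, adjusted p = 0.00488). Acta2 was lower in its brightest probe set (-0.49, SE 0.11, adjusted p = 0.0269), a call lost without E12.5 B or C, or E17.5 A or B (adjusted p 0.0615 to 0.108), and was higher when probe sets open to cross-matching (_x_at and _s_at) were dropped (1.16, adjusted p = 0.0105). The contractile genes Myh11 and Cnn1 had means of 2.60 and 2.13. The summed signal was 15532 to 18638 at E12.5 and 14115 to 15594 at E17.5. Most of it is the brightest probe set of Acta2, at 13.22 to 13.97 over the 6 arrays. The mean log2 signal of the list went the other way, from 6.12 to 6.49 at E12.5 to 7.13 to 7.57 at E17.5.

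Of 11 measured connective tissue genes 2 were higher and 2 lower, with a median of 0.12. Without E12.5 B 5 were higher, and over all single arrays left out 1 to 5 were higher and 0 to 2 lower. Dpt, the dermatopontin gene, rose by 9.04 (SE 0.27, adjusted p = 2.65e-05), and Col1a1 by 2.76 (SE 0.61, adjusted p = 0.0236). Dpt was at 1.69, 2.57 and 2.03 at E12.5, all under 4, so the size of its rise rests on the background step of GCRMA. Pdgfra fell by 3.68 (SE 0.87, adjusted p = 0.0316), and Prrx1, a limb mesenchyme regulator, by 1.95 (SE 0.46, adjusted p = 0.0311). Col1a1 was not called without E12.5 C, or E17.5 A or B (adjusted p 0.0589 to 0.0801), Pdgfra not without E12.5 A or B, or E17.5 B or C (adjusted p 0.0535 to 0.0795), and Prrx1 not without E12.5 A, or E17.5 A, B or C (adjusted p 0.0701 to 0.0857). With the mean of all probe sets Pdgfra was at -2.25 (adjusted p = 0.0777) and Prrx1 at -1.37 (adjusted p = 0.0858), neither called. The summed signal was 12161, 31422 and 15015 on the E12.5 arrays and 34260, 34406 and 27464 on the E17.5 arrays, where E12.5 B reached the E17.5 range. Of 8 macrophage genes Cd68 was called higher (2.99, SE 0.38, adjusted p = 0.00281), and the summed signal was 91 to 191 at E12.5 and 187 to 201 at E17.5. Without Cd68, removed as the only gene of its list called higher, that sum was 80 to 168 at E12.5 and 84 to 96 at E17.5. The cartilage, erythroid and Schwann cell lists held no gene called higher by limma and 1, 3 and 1 called lower, led by Col9a1, a cartilage collagen gene (-4.02, SE 0.89, adjusted p = 0.0245), Hbb-y, an embryonic globin gene (-10.41, SE 0.54, adjusted p = 0.000105), and Erbb3, a neuregulin receptor gene (-2.80, SE 0.19, adjusted p = 0.000248). On leaving out 1 array the erythroid count was 1 to 4 and the cartilage count 0 to 1.

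Muscle genes were called higher in part. Of 12 differentiation genes 5 were higher, none was lower and 7 were not called, with a median of 1.12, led by Tnni2, a fast troponin gene (3.12, SE 0.23, adjusted p = 0.000321), Ckm, the muscle creatine kinase gene (2.80, SE 0.18, adjusted p = 0.000194), and Myh8, the perinatal myosin gene (2.55, SE 0.22, adjusted p = 0.000581). Ckm stood at 2.47 on each E12.5 array, and its difference was 1.27 with values under 4 raised to 4. The summed signal of the 12 was 6297, 13524 and 9547 at E12.5 and 21536, 21496 and 24138 at E17.5, with no overlap. Most of this sum is the brightest gene, Actc1, at 11.82, 12.94 and 12.55 at E12.5 and 13.92, 13.92 and 14.21 at E17.5, so its separation rests largely on that gene. The mean log2 signal of the list, which weighs genes alike, was 7.05 to 7.80 at E12.5 and 8.49 to 8.80 at E17.5. Of 7 progenitor genes 3 were not called and 3 were higher, Itga7, a laminin receptor gene (6.84, SE 0.22, adjusted p = 3.36e-05), Myog, the myogenin gene (1.86, SE 0.35, adjusted p = 0.0128), and Pax7 (0.91, SE 0.16, adjusted p = 0.0105), and Pax3 was lower (-2.56, SE 0.49, adjusted p = 0.0142), a call lost without E12.5 C (adjusted p = 0.0527). Itga7 was at 2.19, 2.17 and 2.31 at E12.5, all under 4, so the size of its difference rests on the background step of GCRMA.

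E12.5 B, the highest E12.5 array for 6 of the 8 caveolar genes, was also the highest of its age in summed muscle differentiation, connective tissue, endothelial, macrophage, cartilage and erythroid signal. It was the lowest in summed muscle progenitor signal, at 21869, 14782 and 20075 on E12.5 A, B and C. E12.5 B was also the lowest in summed Schwann cell signal (7823, 5077 and 7151) and adipocyte signal (37, 35 and 37). In summed smooth muscle and pericyte signal it lay between A and C (15532, 16612 and 18638). The part of these markers in the levels of the caveolar genes was not tested.

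**Figure D4:**
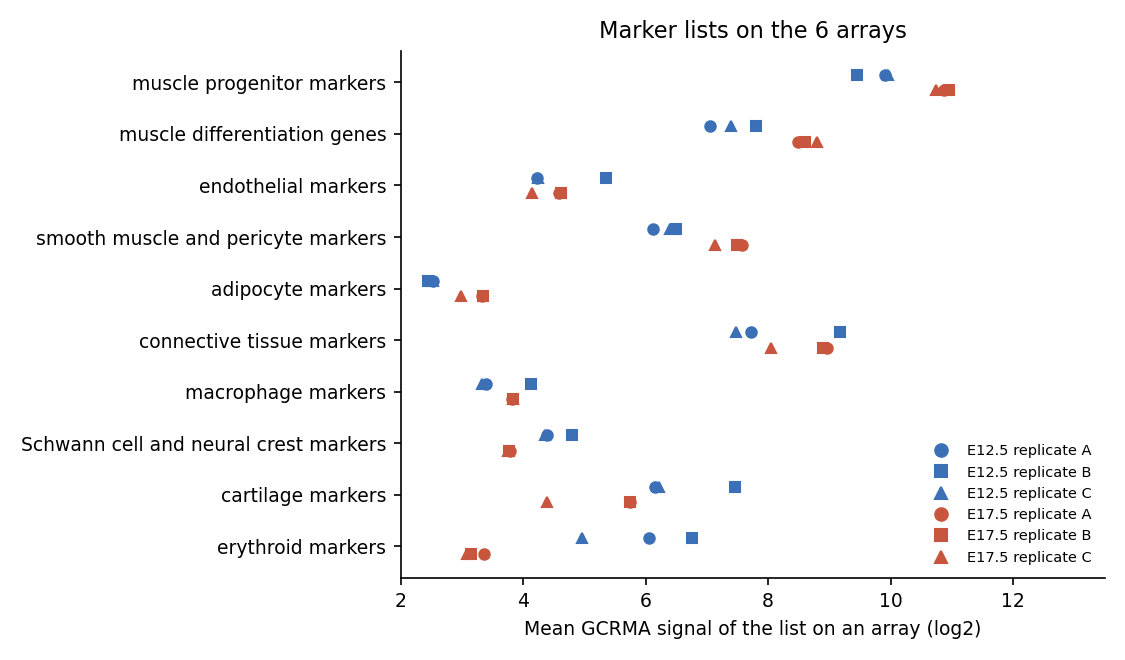
Mean GCRMA signal (log2) of each marker list on each array, blue for E12.5 and red for E17.5, with circles, squares and triangles for replicates A, B and C. The muscle progenitor list is at 9.46 to 9.96 at E12.5 and 10.74 to 10.96 at E17.5. E12.5 replicate B is the highest blue point in every list but the muscle progenitor and adipocyte lists, where it is the lowest.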

How the data were processed

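RNA of sorted cells (100 ng) was amplified and hybridised to Affymetrix expression arrays, per the labels' protocols. The authors deposited 1 log2 signal for each probe set and array, made with GCRMA per the submitters' processing notes; its version is not given in the sources used here. This step draws probe sets without specific signal together at low values, so fold differences from there rest on its background step.

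Platform symbols were updated by entrez ID to RefSeq (34705 of 34909 probe sets with 1 symbol matched). Probe sets with several symbols (931) or unnamed here (9154) were left out. Members and gene lists were chosen with earlier results of these data known. Named genes are every member and paralogue, those most like Cav1, Cav3 or Cavin1, and in each list up to 3 called in each direction with the largest differences. The globin genes Hba-x and Hbb-bh1 are given by count. Further list genes, defining markers and neighbouring genes were picked once their values were known.

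The ages were compared with limma 3.58.1 (R 4.3.3; lmFit, then eBayes with trend), without filter or covariate, after a check on simulated data. P-values measure only the spread between these arrays, whose number limits the precision. Alternatives changed the variance prior, weights, probe set choice, low-signal filter or floor, normalization, threshold or replicate block, averaged E17.5 A and B, or left out 1 array. Figures were drawn with matplotlib 3.10.9.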

Additional observations from a re-analysis of the deposited data

How the results depend on the processing

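The count of members called higher was 8 in 18 of 19 alternatives and 7 where only genes of mean 6 or more were tested, which left out Cav3. None was called lower by limma. In the alternatives without a left-out array, 4.63% to 17.6% of all genes were called higher. The largest adjusted p of a member was 0.0333, for Pacsin3 without E17.5 replicate B. Of the member probe sets 11 to 16 were called higher. Most alternatives tested all 19, but 15 were tested at a mean of at least 4 and 12 at a mean of at least 6. Without _x_at and _s_at probe sets 16 were tested. The mean filters can be passed through E17.5 signal alone. The share over all probe sets was not counted in the alternatives, so these counts only describe the members. With the replicate block 8 members, against 6.0% of all genes, and 12 of their 19 probe sets were called higher. The labels do not say whether a letter links arrays of the 2 ages. Deviations from the age means correlated at -0.38, 0.255 and -0.0705 for A, B and C, and 1 of 6 arrays correlated best with its own letter. With 3 arrays per age, and E17.5 A and B nearly alike, these values cannot decide whether the letters are pairs. Member differences moved by over 1.5 times only on averaging all probe sets of Cavin1 (2.35) and Cav2 (2.67), which adds probe sets with little signal. Ehd1 was at 0.43 with array weights and from -0.21 to 0.38 on leaving out 1 array, against -0.01. Acta2 was at 0.17 with the mean of its probe sets and 1.16 when probe sets open to cross-matching were dropped, against -0.49. The cause was not tested. Of the named list genes, averaging all probe sets brought Abcc9 to 0.51, Anxa1 to 1.69, Ckm to 1.40, Dnm1 to -1.97, Egfr to 0.91, Erbb3 to -1.44, Erg to -1.48, Fabp4 to 1.89, Rgs5 to 1.37 and Tnni2 to 1.91, each still called. It removed the limma calls of Eps15 (0.65, adjusted p = 0.17), Fdft1 (0.34, adjusted p = 0.101) and Flot2 (0.97, adjusted p = 0.0778), and those of Acta2, Pdgfra and Prrx1. Flot2 was also not called without probe sets open to cross-matching (adjusted p = 0.158). Over all genes 1493 were higher and 1587 lower. Array weights gave 3205 and 5218, averaging E17.5 A with B gave 1021 and 825, the block 1091 and 1014, and a threshold of 0.01 gave 841 and 701. The calls of all genes fell to 1069 and 1052 without E12.5 C, 1004 and 836 without E17.5 A and 969 and 770 without E17.5 B.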

Other observations

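The genes of cholesterol synthesis and uptake, which supply a lipid that caveolae need, were mostly not called. Of 16 measured genes 3 were called higher by limma and none lower, also none at an unadjusted p under 0.05, with a median difference of 0.15. Insig1, a sterol-responsive regulator of the pathway, was at 8.82, 8.22 and 8.40 at E12.5 and 10.81, 11.09 and 9.98 at E17.5. All E17.5 arrays were above all E12.5 arrays, and Insig1 rose by 2.15 (SE 0.31, adjusted p = 0.00456). Fdft1, the squalene synthase gene, rose by 0.56 (SE 0.12, adjusted p = 0.0236), and Idi1, an isomerase gene of the pathway, by 0.55 (SE 0.09, adjusted p = 0.0084). Fdft1 was not called without E12.5 C, or E17.5 A or B (adjusted p 0.0687 to 0.0976), with E17.5 A and B averaged (adjusted p = 0.0773) or with the replicate block (adjusted p = 0.0798), and Idi1 not without E17.5 B (adjusted p = 0.0523). Sqle, the squalene epoxidase gene, differed by 0.11 (SE 0.13, adjusted p = 0.721).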
